A study of Mus musculus with 6 samples.

Results

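The small RNAs described here were the 5′ fragments of 4 mouse tRNAs, tRNA-Glu-TTC, tRNA-Asp-GTC, tRNA-Gln-CTG and tRNA-Val-AAC, of 16 nuclear tRNA anticodons whose 5′ end could be read in these libraries. A read of 18 to 35 nt was assigned to one of them when it matched the mature tRNA without a mismatch and began at nucleotide 1 or 2. The 4 tRNAs had been chosen from earlier results on the same libraries, for binding to MILI or for a resistance to NaIO4 that needs Hen1. Their NaIO4 ratios and their ratios in the MILI immunoprecipitate are therefore given as a description and support nothing. Reads of these tRNAs made up 145 of the 10963853 distinct sequences of 18 to 35 nt found in the 6 libraries together.

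All libraries came from cultured spermatogonial stem cells, which renew themselves and give rise to sperm in the testis, kept on feeder cells from mouse embryos. The labels trace the cells to a 15-day-old F1 male of C57BL/6 and DBA2 with transgenic actin-EGFP, and the strain of every library is given as C57BL/6. The groups were wild type cells, wild type RNA treated with NaIO4, cells labelled mhen1-/-, mhen1-/- RNA treated with NaIO4, cells labelled mili-/-, and RNA precipitated from wild type cells with an antibody to MILI (MABE363). The first 5 were total RNA with added spike-ins. The knockouts were made by transient transfection of Cas9 and guide RNAs, and were picked as single colonies and sequenced, so that each knockout library may stand for 1 clone. For the NaIO4 groups, 4 µg of RNA received 2 µl of a 200 mM solution for 1 h on ice, and each library was made from 0.5 µg of RNA. Each group had 1 library, so no test between groups was possible. Every interval below is a 95% interval for counting error only, and copies made by PCR could not be told from separate molecules. In bulk RNA, fewer cells of a type and less RNA per cell cannot be told apart.

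A tRNA folds into a cloverleaf, with an acceptor stem that joins its 5′ and 3′ ends, a D arm and an anticodon arm. Endonucleases such as angiogenin cut it in the anticodon loop, which leaves a 5′ and a 3′ piece of like size, and shorter 5′ fragments end before that loop. In germ cells, Piwi proteins such as MILI (gene Piwil2) bind piRNAs, and Hen1 (gene Henmt1) methylates the 2′ oxygen of the last ribose of a piRNA once it is bound and trimmed. NaIO4 oxidises a free 2′,3′-diol at the 3′ end, and an oxidised end is not ligated to an adapter, so a 2′-O-methylated RNA gains share in a treated library while an unmodified one loses it.

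The first 37 nt of each mature tRNA are shown first because all results below turn on where each fragment ends. They were read from the deposited reads of at least 36 nt, run 5′ to 3′ in DNA letters, and have the anticodon in capitals at nt 34 to 36.
tRNA-Glu-TTC, isodecoder 1: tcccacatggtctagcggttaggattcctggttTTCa
tRNA-Glu-TTC, isodecoder 2: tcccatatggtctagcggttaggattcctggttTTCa
tRNA-Asp-GTC: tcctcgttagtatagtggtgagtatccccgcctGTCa
tRNA-Gln-CTG: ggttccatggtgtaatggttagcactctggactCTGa
tRNA-Val-AAC: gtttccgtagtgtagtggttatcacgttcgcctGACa
The 2 Glu isodecoders differed by C6T, with positions counted from 1 at the 5′ end, and were summed. Glu and Asp began with T, which is U in RNA, as most piRNAs do, and Gln and Val began with G. All 4 tRNAs had G at nt 10. Over the first 29 nt, Gln and Val shared 21 identical positions, Glu and Asp 18, and Glu and Val 13. The RefSeq gene table for GRCm38.p6 lists 8 genes for tRNA-Glu-TTC, 16 for tRNA-Asp-GTC, 10 for tRNA-Gln-CTG and 8 for tRNA-Val-AAC, so that a read has no single place of origin. No read of Glu, Asp or Gln matched another of the tRNAs read here. Of the Val reads, 97.7% in wild type also matched tRNA-Val-CAC, whose first 33 nt are the same. One such gene, n-TVcac9, lies on the minus strand at chr13:23446142-23446214 of that build. The anticodon of tRNA-Val-AAC is printed as read, since inosine at nt 34 is copied as G. Among wild type reads from nt 1 that reached nt 34, 528 had G, 2015 had C, the base of Val-CAC, and 53 had A. Reads with C were not counted. Val reads that end by nt 33 thus pool Val-AAC and Val-CAC, while longer ones are Val-AAC alone.

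The fragments that the results turn on are printed with the bases from nt 25 on in capitals, so that their 3′ ends can be compared.
Glu, 28 nt: tcccacatggtctagcggttaggaTTCC
Glu, 29 nt: tcccacatggtctagcggttaggaTTCCT
Glu, 33 nt: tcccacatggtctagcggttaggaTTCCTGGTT
Asp, 26 nt: tcctcgttagtatagtggtgagtaTC
Asp, 29 nt: tcctcgttagtatagtggtgagtaTCCCC
Asp, 32 nt: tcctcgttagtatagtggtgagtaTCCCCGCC
Gln, 27 nt: ggttccatggtgtaatggttagcaCTC
Gln, 29 nt: ggttccatggtgtaatggttagcaCTCTG
Val, 29 nt: gtttccgtagtgtagtggttatcaCGTTC
Val, 33 nt: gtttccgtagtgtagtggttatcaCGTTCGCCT
The fragments of 27 to 29 nt end in the anticodon stem (nt 27 to 31), and the 26-nt fragment ends just before it. The 32- and 33-nt fragments end in the anticodon loop, before the anticodon.

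The libraries held 2604390 to 25240941 reads of 18 to 35 nt, fewest in the Hen1 knockout with NaIO4 and most in the immunoprecipitate. Their makeup differed widely. The 10 most abundant sequences took 5.32% of the reads in the immunoprecipitate, 13.2% to 28.5% in 4 libraries and 42.6% in the Hen1 knockout with NaIO4. MicroRNA reads fell from 17.5% in wild type to 1.05% with NaIO4, and were at 6.50%, 1.99%, 31.3% and 0.533% in the untreated Hen1 knockout, the treated Hen1 knockout, the Mili knockout and the immunoprecipitate. A share of the library moves with all of these, so values are also given as ratios between lengths of the same tRNA, which do not depend on the library total. Germ line microRNAs (6 of 6 genes in the RefSeq hairpins) made up 36.9% to 53.9% of the microRNA reads. Fibroblast microRNAs (4 of 6 genes) ranged from 0.965% in wild type to 4.03% in the immunoprecipitate, with 2.57% in the untreated Hen1 knockout and 1.62% in the Mili knockout. MicroRNAs linked to pluripotency were at 0.295% to 0.852%, with Mir291a at 0, blood microRNAs at 0.0550% to 0.104% and muscle microRNAs at 0.00187% to 0.00963%, with Mir1a at 0. The part of the feeders in the results below was not tested.

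Glu was the most abundant of the 4 tRNAs in wild type, at 8003 rpm (reads scaled to a total of 1000000 reads of 18 to 35 nt), followed by Val at 3416, Asp at 2263 and Gln at 501 rpm. The order was not the same in the immunoprecipitate, where Asp led with 9922 rpm, ahead of Val at 2556, Glu at 2533 and Gln at 533 rpm. Together the 4 tRNAs held 14182 rpm in wild type, 14387 with NaIO4, 18114 in the Hen1 knockout, 6526 in the treated Hen1 knockout, 15147 in the Mili knockout and 15544 in the MILI immunoprecipitate. Only the treated Hen1 knockout stood low on this sum.

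**Figure D1:**
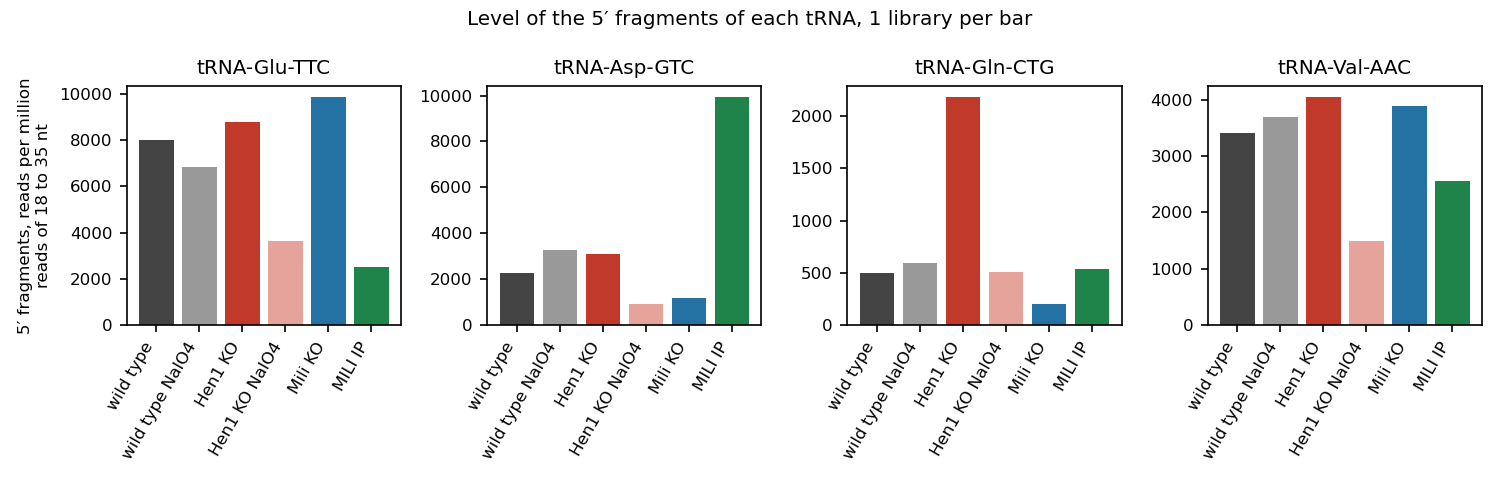
Level of the 5′ fragments of each tRNA (rpm, each panel with its own scale from 0), with 1 bar for each of the 6 libraries and no error bar because each group had 1 library. Asp is highest in the MILI immunoprecipitate (9922 rpm), Gln in the untreated Hen1 knockout (2179 rpm), and Glu and Val are lowest in the immunoprecipitate or the treated Hen1 knockout.

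With NaIO4, the ratio of treated to untreated share (the NaIO4 ratio) in wild type was 0.854 for Glu (0.845 to 0.864), 1.44 for Asp (1.42 to 1.47), 1.19 for Gln (1.14 to 1.24) and 1.08 for Val. In the Hen1 knockout it was 0.412 for Glu, 0.290 for Asp (0.278 to 0.303), 0.233 for Gln and 0.369 for Val. For the 4 tRNAs together it was 1.01 in wild type against 0.360 in the knockout (0.355 to 0.366). All reads of 25 to 31 nt outside these tRNAs, the piRNA size range, had ratios of 1.50 and 0.503, and microRNAs, which end in a free diol, had 0.0596 and 0.306. The share of the 4 tRNAs was thus lower in the treated than in the untreated library of the knockout, and so was that of the other reads of this size. Taken among reads of 25 to 31 nt alone, the 4 tRNAs had NaIO4 ratios of 0.792 (wild type) and 0.863 (knockout), and the 2 genotypes no longer lay on either side of 1. Singly, on that scale, the ratios in wild type and knockout were 1.17 and 0.574 for Asp, 0.834 and 0.468 for Gln, 1.19 and 0.557 for Val, and 0.683 and 1.39 for Glu. The ratio of Glu as a whole was below 1 in both genotypes, against the reason for which it was picked.

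Within Glu, 2 fragments that differ by 1 nucleotide went opposite ways. The 28-nt fragment was at 4605 rpm in wild type, 2001 with NaIO4, 2424 in the Hen1 knockout, 2247 in the treated Hen1 knockout, 4028 in the Mili knockout and 241 in the MILI immunoprecipitate. The 29-nt fragment was at 1537, 4110, 465, 159, 1462 and 1839 rpm in the same libraries. The 29-nt fragment was thus highest where NaIO4 had been used on wild type RNA, and the 28-nt fragment was low there and in the immunoprecipitate. In wild type the NaIO4 ratio was 0.435 at 28 nt (0.427 to 0.442) and 2.67 at 29 nt (2.62 to 2.73). In the Hen1 knockout it was 0.927 at 28 nt (0.901 to 0.953) and 0.342 at 29 nt (0.310 to 0.378). Free of the library total, there were 0.334 reads of 29 nt for each read of 28 nt in wild type and 2.05 with NaIO4. The same quotient was 0.192 in the Hen1 knockout, 0.0709 in the treated Hen1 knockout, 0.363 in the Mili knockout and 7.62 in the MILI immunoprecipitate (7.42 to 7.83). The 29-nt fragment made up 72.6% of the Glu reads bound to MILI and 19.2% of those in wild type. Both isodecoders showed this: at 29 nt the NaIO4 ratio was 2.50 for the first and 2.94 for the second in wild type, against 0.358 and 0.322 in the knockout.

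Asp, the tRNA with the highest ratio in the immunoprecipitate, was 4.39-fold higher there than in wild type (4.32 to 4.45). Its 29-nt fragment was at 517 rpm in wild type, 923 with NaIO4, 395 in the Hen1 knockout, 89.5 in the treated Hen1 knockout, 23.7 in the Mili knockout and 5923 in the MILI immunoprecipitate. This fragment was the highest in the immunoprecipitate of all named fragments and nearly gone in the Mili knockout. It was 11.5-fold higher in the immunoprecipitate than in wild type (11.1 to 11.8) and at 0.0459 of wild type in the Mili knockout (0.0381 to 0.0553), where 114 reads remained of this length. The 32-nt fragment, the commonest in wild type with 36.8% of the Asp reads, was 3.26-fold higher in the immunoprecipitate and at 0.618 of wild type in the Mili knockout. Reads of 29 nt per read of 32 nt numbered 0.622 in wild type, 2.18 in the immunoprecipitate and 0.0461 in the Mili knockout. The loss in the Mili knockout was thus much larger for 29 nt than for 32 nt, whatever the library total. Asp kept its share with NaIO4 in wild type at each length from 26 to 32 nt, with ratios of 1.14 to 1.96, and fell below it at 33 nt (0.659), 34 nt (0.146) and 35 nt (0.115).

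Gln was the scarcest of the 4 tRNAs and the one that differed most between untreated Hen1 knockout and wild type. Its 27-nt fragment was at 299 rpm in wild type, 391 with NaIO4, 1151 in the Hen1 knockout, 268 in the treated Hen1 knockout, 67.6 in the Mili knockout and 236 in the MILI immunoprecipitate. Its 29-nt fragment was at 110, 136, 755, 149, 17.1 and 231 rpm. Both were highest in the untreated Hen1 knockout and lowest in the Mili knockout, while the 28-nt fragment between them was at 52.9 rpm in wild type and 54.7 rpm in the Mili knockout. The Mili knockout had 0.226 of wild type at 27 nt (0.202 to 0.254), 1.03 at 28 nt (0.885 to 1.21) and 0.155 at 29 nt (0.124 to 0.195). At 35 nt, which ends inside the anticodon, the order turned, with 19.7 rpm in wild type and 41.4 in the Mili knockout. That fragment was at 0.389 rpm in treated wild type, from 4 reads, and at 0.911 rpm in the immunoprecipitate.

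Val was led by its 33-nt fragment, which ends just before the anticodon and is shared with Val-CAC. Its lengths of 34 and 35 nt leave out Val-CAC and so are not on the same footing as the shorter ones. It was at 2023 rpm in wild type, 2423 with NaIO4, 1762 in the Hen1 knockout, 339 in the treated Hen1 knockout, 2651 in the Mili knockout and 1156 in the MILI immunoprecipitate. The 32-nt fragment was at 740, 309, 564, 600, 778 and 615 rpm. As with Glu, 1 nucleotide at the 3′ end divided the response to NaIO4: the ratio was 1.20 at 33 nt and 0.418 at 32 nt in wild type, and 0.192 at 33 nt and 1.06 at 32 nt in the Hen1 knockout. There were 2.74 reads of 33 nt per read of 32 nt in wild type and 7.83 with NaIO4, against 3.12 and 0.565 in the knockout without and with NaIO4. The immunoprecipitate did not follow the NaIO4 ratio here, at 0.571 of wild type at 33 nt and 0.832 at 32 nt. The 29-nt fragment did, with NaIO4 ratios of 2.23 (wild type) and 0.265 (knockout), and with 1.73 in the immunoprecipitate and 0.162 in the Mili knockout (0.141 to 0.186).

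**Figure D2:**
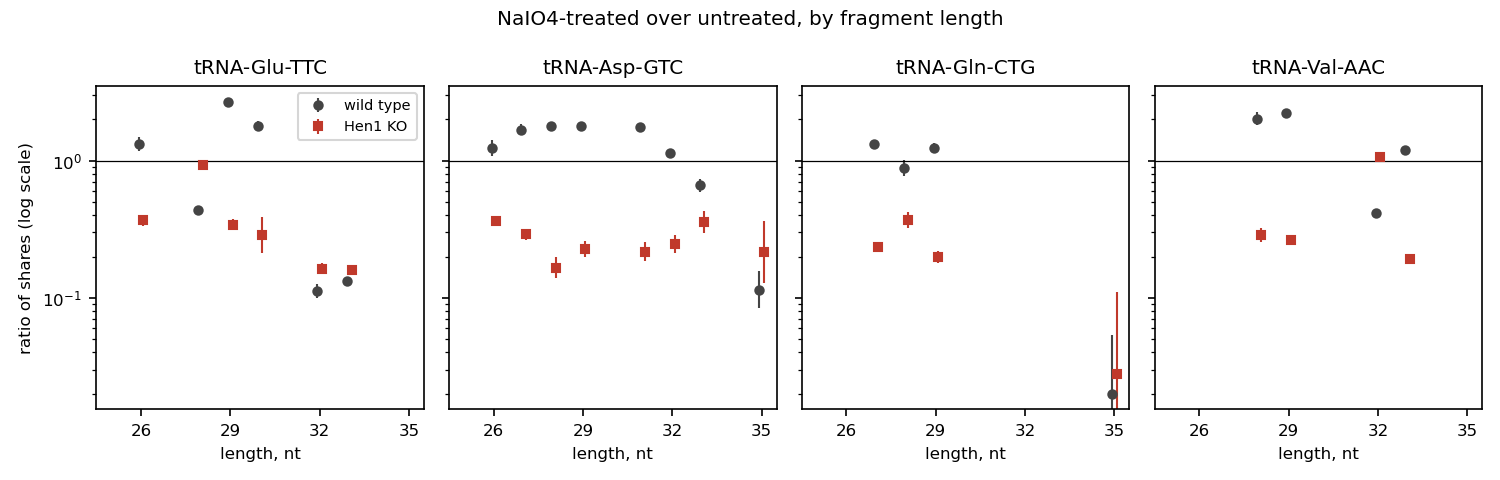
NaIO4 ratio (treated over untreated share, log scale, bars are 95% count intervals) by fragment length for each length that held at least 5% of a tRNA's reads in a library, in wild type (black circles) and the Hen1 knockout (red squares). The knockout lies above wild type at 28 nt of Glu (0.435 in wild type, 0.927 in the knockout) and 32 nt of Val (0.418 and 1.06). It also does so at 32 and 33 nt of Glu and 35 nt of Asp and Gln, where both series are below 1. At 35 nt of Gln this rests on 4 treated wild type reads and 2 treated knockout reads, too few to order the series. The 2 series lie far apart at 29 nt of all 4 tRNAs.

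Length was no part of the rule, although some of the fragments were known from the earlier results, and the mix of lengths differed between all libraries. Over the 4 tRNAs, fragments of 25 to 31 nt made up 61.8% of the reads in wild type, 72.1% with NaIO4, 57.2% in the Hen1 knockout, 68.8% in the treated Hen1 knockout, 44.0% in the Mili knockout and 68.6% in the MILI immunoprecipitate. At 29 nt alone, the share was 17.3% in wild type, 40.4% with NaIO4, 54.6% in the immunoprecipitate and 10.2% in the Mili knockout. The share of this length was thus higher in treated wild type and in the immunoprecipitate than in wild type, and lower in the Mili knockout. Some other tRNAs shared this order, as given below. The length of 29 nt did not lead for every tRNA. In the immunoprecipitate 29 nt was the commonest length for Glu and Asp (59.7%), 27 nt for Gln (44.3%) and 33 nt for Val (45.2%). In treated wild type it led for Glu (60.1%), while 32 nt led for Asp (29.1%), 27 nt for Gln (65.6%) and 33 nt for Val (65.7%). Fragments of 34 and 35 nt were low in both: together over the 4 tRNAs, the 35-nt fragments were at 238 rpm in wild type, 13.8 with NaIO4, 24.2 in the immunoprecipitate and 564 in the Mili knockout. Those of Val-CAC are not among them, while its shorter reads are counted with Val-AAC.

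**Figure D3:**
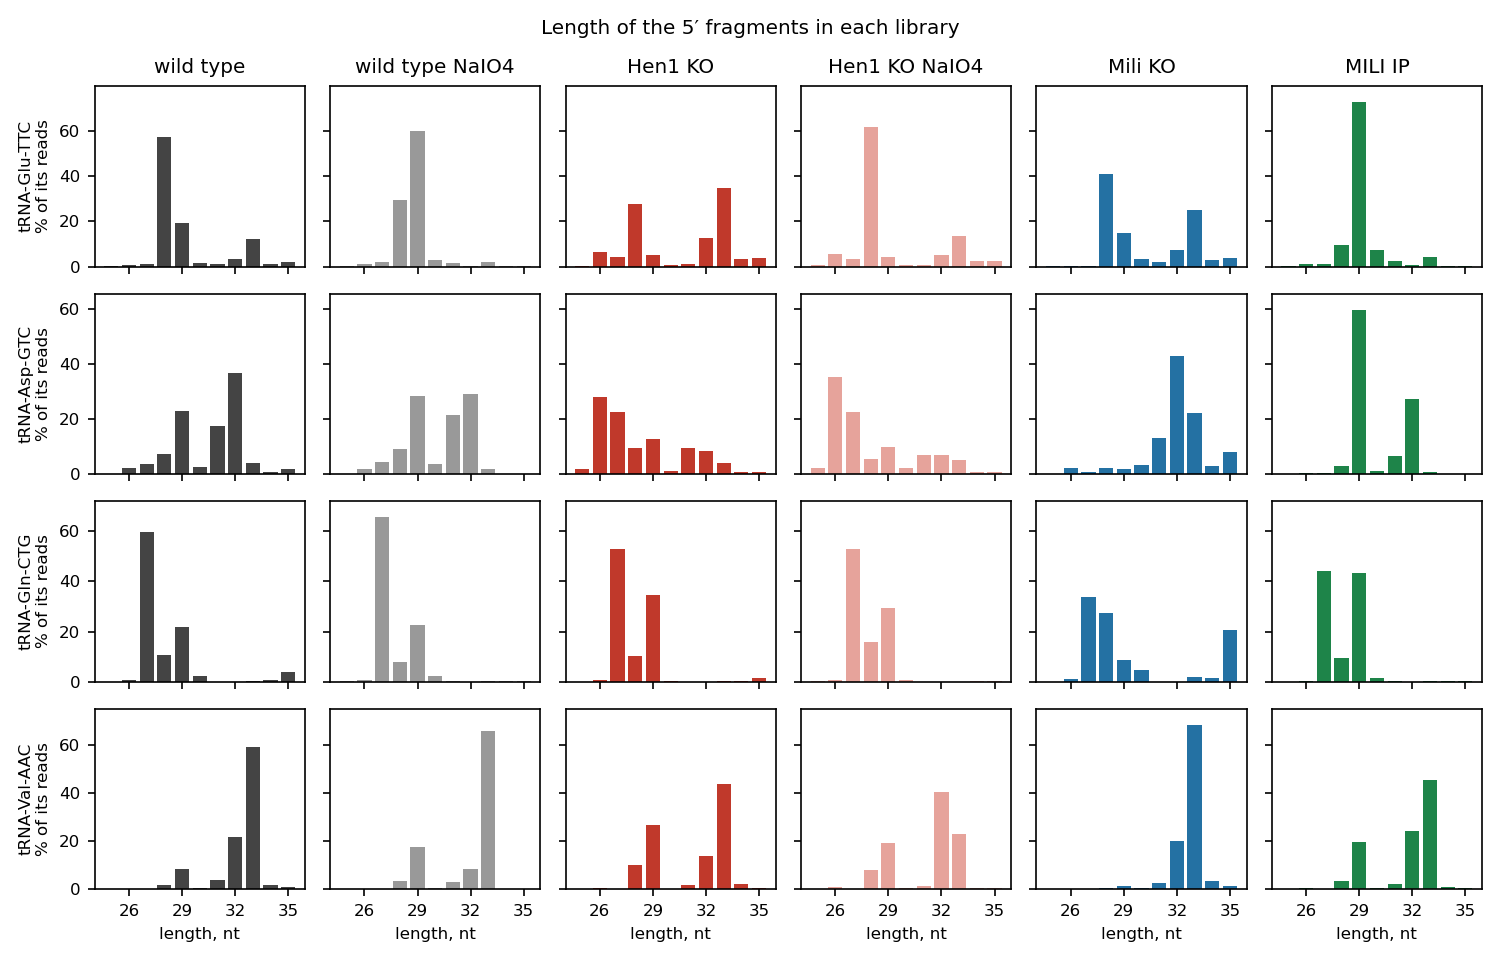
Length of the 5′ fragments of each tRNA (rows) in each library (columns), as a percent of the tRNA's reads in that library, with 1 bar for each nucleotide from 25 to 35. The commonest Glu length is 28 nt in wild type (57.5%) and 29 nt in the immunoprecipitate (72.6%), and the Asp profile shifts to 26 and 27 nt in the Hen1 knockout.

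In the Hen1 knockout, a larger share of the Asp and Glu fragments ended at nt 26 or 27 than in wild type. Asp fragments of 26 or 27 nt made up 5.78% of the Asp reads in wild type, 6.09% with NaIO4, 50.6% in the Hen1 knockout, 57.8% in the treated Hen1 knockout, 3.06% in the Mili knockout and 0.808% in the MILI immunoprecipitate. The 26-nt fragment of Asp was at 47.0 rpm in wild type against 871 rpm in the Hen1 knockout, 18.5-fold higher (16.6 to 20.6), and the 27-nt fragment was 8.26-fold higher. The 29-nt and 32-nt fragments of Asp were at 0.765 and 0.309 of wild type in the Hen1 knockout. Asp reads of 29 nt per read of 27 nt numbered 6.17 in wild type and only 0.572 in the Hen1 knockout. For Glu, 26 or 27 nt held 1.87% of the reads in wild type but 10.5% in the Hen1 knockout. The 26-nt fragment of Glu was 9.21-fold higher in the Hen1 knockout (8.36 to 10.2), while 28 nt and 29 nt were at 0.526 and 0.303 of wild type. As a share of the tRNA's own reads, the gain at 26 or 27 nt was not seen for Gln and was small for Val. These lengths held 53.4% of the Gln reads in the Hen1 knockout against 60.2% in wild type, and 0.589% against 0.264% of the Val reads. In rpm both were higher in the Hen1 knockout, 27-nt Gln at 1151 against 299 and 26-nt Val at 16.1 against 6.96. The 29-nt fragments of Gln and Val were 6.87-fold and 3.74-fold higher in the Hen1 knockout than in wild type. Val moved to shorter lengths in another way, with 39.2% of its reads at 25 to 31 nt in the Hen1 knockout against 14.7% in wild type. Its reads of 29 nt per read of 33 nt numbered 0.609 against 0.142. The 33-nt fragment of Glu was also higher in the knockouts, at 970 rpm in wild type, 3057 in the Hen1 knockout and 2453 in the Mili knockout, with 128 in treated wild type and 111 in the immunoprecipitate. Here and below, the Hen1 and Mili ratios share the wild type library.

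**Figure D4:**
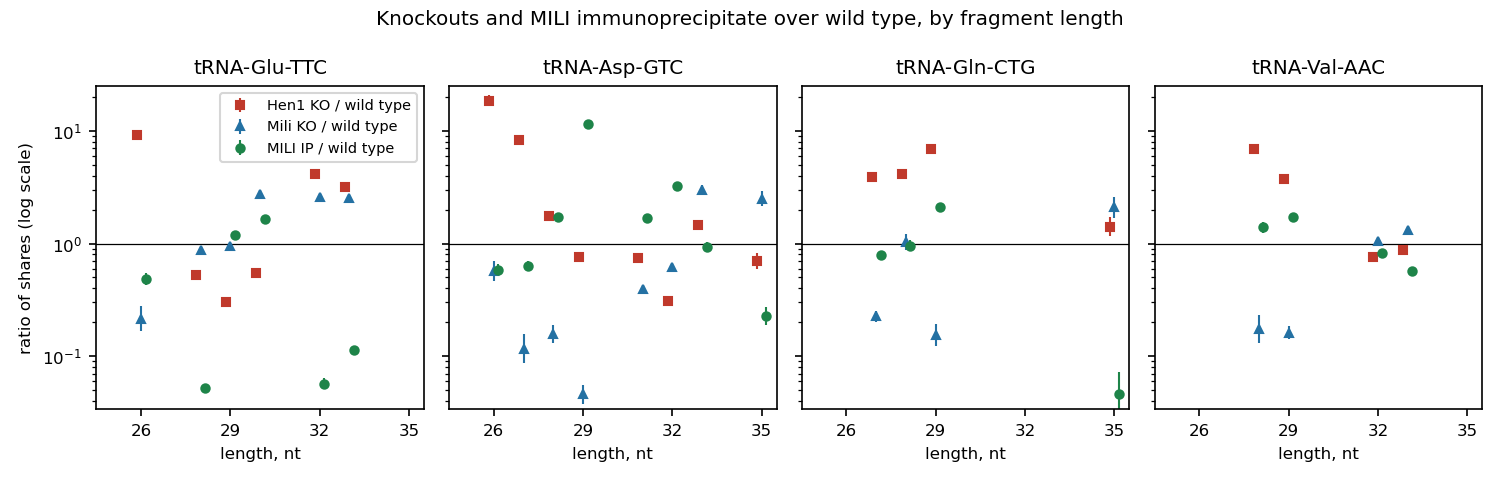
Ratio to untreated wild type (log scale, bars are 95% count intervals) by fragment length in the Hen1 knockout (red squares), the Mili knockout (blue triangles) and the MILI immunoprecipitate (green circles), for lengths that held at least 5% of a tRNA's reads in a library. At 29 nt of Asp the immunoprecipitate is at 11.5 and the Mili knockout at 0.0459, while at 29 nt of Glu they are at 1.20 and 0.951.

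The Mili knockout separated the tRNAs. At 29 nt, Asp, Gln and Val were at 0.0459, 0.155 and 0.162 of wild type. The 29-nt fragment of Glu was at 0.951 (0.923 to 0.980), although it had the highest NaIO4 ratio of the named fragments in wild type and led the Glu reads bound to MILI. This value sums 2 isodecoders that differed, the first at 1.11 (1.07 to 1.15) and the second at 0.712 (0.676 to 0.751). The 28-nt fragment of Glu was at 0.875 and its 26-nt fragment at 0.216. Reads of 25 to 31 nt outside the 4 tRNAs were at 0.406 of wild type in the Mili knockout, and microRNA reads at 1.78. Per microRNA read, every ratio to wild type in this library is smaller, and the 4 tRNAs together were at 0.598.

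Reads with bases after the last templated nucleotide were counted next, since the removal of Hen1 exposes the 3′ end of piRNAs to tailing in other animals. A tail was 1 to 3 bases, all T, which is U in RNA, where the next base of the tRNA is not T, after a templated part of at least 24 nt. Asp fragments that end at nt 28 had such a tail in 5.23% of reads in wild type, 1.79% with NaIO4, 15.2% in the Hen1 knockout, 12.2% in the treated Hen1 knockout and 7.83% in the immunoprecipitate. None of the 128 reads of the Mili knockout at this end had one (exact interval up to 2.84%). After nt 29 of Asp the share was 1.28% in wild type, 8.58% in the Hen1 knockout and 0.285% in the immunoprecipitate. After nt 29 of Gln it was 2.31% in wild type, 7.49% in the Hen1 knockout and 1.87% in the immunoprecipitate, and after nt 29 of Glu 0.266%, 3.55% and 0.322%. In the treated Hen1 knockout it was 8.76% for Asp, 8.71% for Gln and 1.89% for Glu after nt 29. At nt 28 of Asp and nt 29 of Asp, Gln and Glu the tailed share was thus higher in both Hen1 knockout libraries than in both wild type libraries and the immunoprecipitate. Not every end showed this. At nt 27 of Asp it was 9.15% in the Hen1 knockout, 8.50% in the treated Hen1 knockout and 9.33% in the immunoprecipitate. At nt 27 of Glu it was 12.5% and 9.64% in the same Hen1 libraries, 10.2% in wild type and 25.6% in the Mili knockout, where 20 reads had a tail. Over all ends of Val from nt 24 to 29 it was 1.79% in wild type, 2.19% with NaIO4, 2.49% in the Hen1 knockout and 1.45% in the treated Hen1 knockout. Val at nt 29 had 0 tailed reads in wild type, where 2101 reads ended, against 0.460% in the Hen1 knockout. The 28-nt fragment of Glu cannot show a T tail, because nt 29 is T. Tails of other bases were found too. Over the 4 tRNAs and nt 24 to 29, T tails were at 5.26% in the Hen1 knockout against 0.577% in wild type. The values were 1.21% against 0.253% for A, 0.188% against 0.346% for C and 0.0333% against 0.0155% for G. The exact reads at these ends numbered 113909 in the Hen1 knockout and 57946 in wild type. Of these, 28251 and 33607 were 28-nt Glu reads, which cannot show a T tail, so the pooled shares move with the mix of lengths. Each base is barred where it is the next base of the tRNA, so the bases are not on the same footing. At nt 28 in the immunoprecipitate, T was at 3.53%, A at 2.81% and C at 6.11%. The C tails there were 996 reads, set against 15295 exact reads that end at nt 28. A 29-nt Glu read that ends in C counts here and again as a mismatch at nt 29 below, so the 2 are not separate observations. A tail of 1 base reads the same as a fragment 1 nt longer with a misread last base, and these were not told apart.

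Mismatches within the reads differed between the libraries at some positions and little at others. Bases are named as the tRNA base, its position from the 5′ end and the base read. Among Asp reads of 32 nt, A9C was found in 7.58% in wild type (499 reads), in 1.54% with NaIO4 and in 1.54% of the immunoprecipitate. Among Asp reads of 33 nt, it was found in 13.6% in wild type, 5.52% with NaIO4, 27.4% in the Hen1 knockout, 18.4% in the treated Hen1 knockout, 13.5% in the Mili knockout and 3.78% in the MILI immunoprecipitate. In Val reads of 33 nt, T27C was at 3.59%, 0.650%, 5.69%, 4.95%, 6.56% and 1.19% in the same order. At these lengths both changes were thus scarcer in treated wild type and in the immunoprecipitate than in the other libraries. This did not hold at 29 nt for T27C of Val, which was at 10.2%, 10.4%, 11.7%, 14.1%, 17.6% and 11.7% in the same order. Over reads of 28 to 35 nt, the most frequent change of Asp, G20T, was highest in treated wild type (21.3%) and lowest in the immunoprecipitate (12.2%). This order depended on length. At 29 nt, G20T was at 7.26% in the immunoprecipitate and 22.1% in wild type. At 30 to 31 nt the immunoprecipitate was the highest library, at 32.1% against 23.4% in wild type. Over reads of 28 to 35 nt, G9T of Glu was at 5.08% to 6.09% and G26A of Val at 4.36% to 5.92% in all 6 libraries. T29C of Glu, near the 3′ end, was at 0.317% in wild type, 0.876% with NaIO4, 0.0909% in the Hen1 knockout and 1.59% in the immunoprecipitate. These percents are over reads that include those of 28 nt, which do not reach that base, so they move with the mix of lengths. The reads with T29C were 182, 594, 83 and 997 in that order, beside 11242, 42231, 5432 and 46366 exact Glu reads of 29 nt from nt 1. Those of 29 nt are also the reads counted above as C tails of Glu at nt 28. Position 9 of many tRNAs carries a methylated base that is misread in reverse transcription, but a mismatch from a modified base and one from another gene copy cannot be told apart in these reads.

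The 3′ fragments of the same tRNAs, reads of at least 18 nt that end in the CCA added to every mature tRNA, had a higher share with NaIO4 in both genotypes. For Glu they were at 300 rpm in wild type, 1084 with NaIO4, 210 in the Hen1 knockout, 2134 in the treated Hen1 knockout, 569 in the Mili knockout and 19.2 in the MILI immunoprecipitate. For Asp they were at 72.8, 86.5, 52.6, 290, 125 and 1.90 rpm. The NaIO4 ratios of the 3′ fragments were 3.61 (wild type) and 10.2 (Hen1 knockout) for Glu, and 1.19 and 5.50 for Asp. They were 6.04 and 26.3 for Gln, and 3.30 and 9.78 for Val, although whether other tRNAs share these 3′ ends was not tested. The ratio to wild type in the immunoprecipitate was 0.0639 for Glu, 0.0261 for Asp, 0.914 for Gln and 4.99 for Val.

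Counted as single sequences, the 5′ fragments are read against all sequences of 18 to 35 nt. A sequence was counted as changed with a ratio of at least 2 or at most 0.5 and enough reads (10 in each untreated library for the NaIO4 ratios, otherwise 20 in both libraries together). Of the 145 member sequences, 75 had enough reads for the NaIO4 ratios, 84 for the Hen1 knockout, 72 for the Mili knockout and 85 for the immunoprecipitate, so the counts leave out the rarest members. In wild type with NaIO4, 10 of 75 were higher and 26 lower, beside 13.3% of all 28467 sequences higher and 43.2% lower. In the Hen1 knockout with NaIO4, 4 were higher and 56 lower, beside 10.0% and 71.8% of all sequences. As shares of the 75, these counts are 13.3% and 34.7% (wild type) and 5.33% and 74.7% (knockout), and the rule had used both contrasts. In the untreated Hen1 knockout, 34 of 84 (40.5%) were higher and 12 (14.3%) lower than in wild type, beside 35.6% and 30.8% of 58482 sequences. In the Mili knockout, 18 of 72 were higher and 22 (30.6%) lower, beside 23.0% and 38.4% of 30220. In the immunoprecipitate, 17 of 85 (20.0%) were higher, 10 of them from Asp, and 28 (32.9%) lower, 16 of them from Glu, beside 54.7% and 14.1% of 136836. The median ratio in the immunoprecipitate was 0.835 for the 85 members and 2.38 for all sequences tested.

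The 5′ fragments of other tRNAs, apart from Val-CAC, were set beside these. The most abundant of them in wild type, tRNA-Gly-GCC with 10675 rpm, had NaIO4 ratios of 0.306 (wild type) and 0.327 (Hen1 knockout) and was at 0.123 of wild type in the immunoprecipitate. The corresponding values for tRNA-Lys-CTT were 0.319, 0.183 and 1.33, and for tRNA-Lys-TTT 0.0715, 0.134 and 0.0609. Of other anticodons of the same amino acids, tRNA-Gln-TTG had 1.12, 0.190 and 0.563, tRNA-Glu-CTC 0.643, 0.257 and 0.181, and tRNA-Val-TAC 0.323, 0.201 and 0.582. Over all lengths counted together, a NaIO4 ratio above 1 in wild type was found for Asp, Gln-CTG and Val-AAC and also for Gln-TTG. On that count, Asp, Gln-CTG and Lys-CTT were the tRNAs with a ratio above 1 in the immunoprecipitate. At 1.06, that of Gln-CTG is close to no change. At 25 to 31 nt, however, Glu-CTC rose with NaIO4 in wild type, from 467 to 778 rpm. In the Hen1 knockout it fell from 630 to 277 rpm. At these lengths Gln-TTG (57.4 and 56.8 rpm) and Val-TAC (117 and 92.1 rpm) did not rise with NaIO4 in wild type. In the immunoprecipitate, Val-TAC was at 163 rpm, above wild type, while Glu-CTC (224 rpm) and Gln-TTG (50.6 rpm) were below it. Lys-CTT was also above wild type there (2912 against 1354 rpm) but was at 639 rpm in treated wild type. At 29 nt alone, Lys-CTT held 6.28% in wild type, 13.4% with NaIO4, 20.0% in the immunoprecipitate and 2.19% in the Mili knockout. Val-TAC held 3.76%, 14.2%, 15.5% and 0.786%. Gln-TTG, Ala-TGC and Lys-TTT lay on the same sides of wild type. Gly-GCC, Gly-CCC, Glu-CTC, His-GTG, Cys-GCA and Thr-TGT did not.

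**Figure D5:**
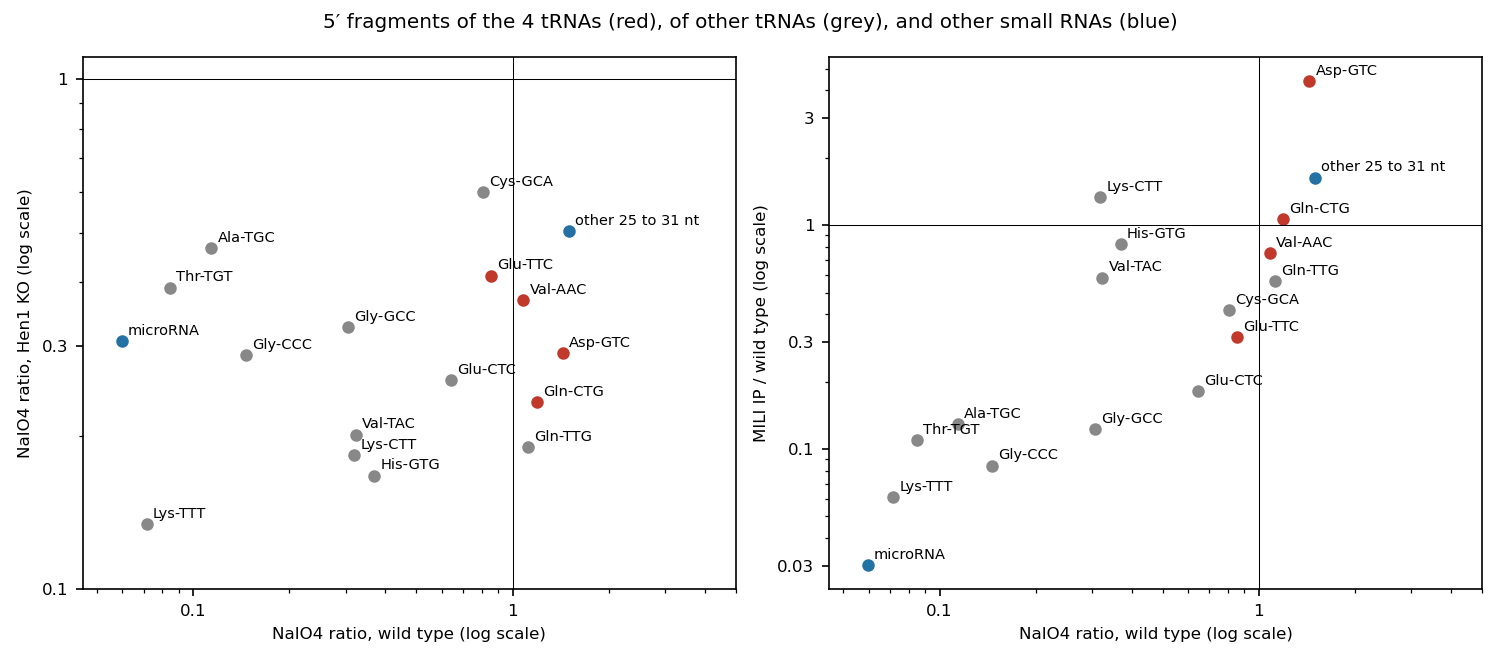
NaIO4 ratio in wild type against that in the Hen1 knockout (left) and against the ratio of immunoprecipitate to wild type (right), log scales, 1 point for the 5′ fragments of each tRNA (red for the 4 described here, grey for others) and for microRNAs and the remaining reads of 25 to 31 nt (blue). Asp lies highest in the right panel at 4.39, and microRNAs lie lowest at 0.0304.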

How the data were processed

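Each deposited file lists distinct small RNA sequences with their raw counts, one sequence and a whole number per line, from libraries whose totals differ. Per the submitters' processing notes, Bowtie and mm10 were used. How adapters were trimmed is not given in the sources used here. Reads of the spike-ins and of the Henmt1 and Piwil2 mRNAs were not analysed here. The members and lists were chosen with earlier results of these data known.

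Mature 5′ sequences were built from reads of at least 36 nt by cloverleaf geometry (T at nt 8, A at nt 14, a paired D stem, T at nt 33) and an anticodon of the RefSeq tRNA gene table. A sequence needed at least 50 reads that span the anticodon and 20% of the most abundant one for that anticodon, which left 21 isodecoders of 16 anticodons. Fragments were exact matches of 18 to 35 nt from nt 1 or 2. Reads from nt 2 were 0.599% to 1.04% of them. Shares are of all reads of 18 to 35 nt, and ratios have 95% intervals from the counts on the log scale. Shares of reads have exact (Clopper-Pearson) intervals. Named were the 4 tRNAs, their 3 most abundant sequences in wild type, treated wild type and the immunoprecipitate, lengths with 5% of a tRNA's reads, and the next most abundant tRNA with Gly and Lys. MicroRNA reads were sense matches within RefSeq hairpins, without Mir5099. Scripts were tested on simulated data and ran in Python 3.11.15 with matplotlib 3.10.9, pyarrow 21.0.0, scipy 1.17.1, pandas 2.3.3 and numpy 2.4.6. Alternatives were reads from nt 1 alone, 1 mismatch, microRNA reads as the total, the 10 most abundant sequences left out, 25 to 31 nt alone, each distinct sequence counted once, a minimum of 50 reads and a 4-fold rule.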

Additional observations from a re-analysis of the deposited data

Results flagged for a closer look

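The NaIO4 ratio of the 5′ fragments was above 1 in wild type but below 1 in the Hen1 knockout for the 4 tRNAs together and for 3 of them. The ratio of the knockout's NaIO4 ratio to that of wild type was 0.355 for the 4 tRNAs together (1.01 in wild type, 0.360 in the knockout), 0.201 for Asp, 0.195 for Gln and 0.342 for Val. Among reads of 25 to 31 nt alone, the ratio in wild type was below 1 for the 4 tRNAs together (0.792) and for Gln (0.834), and above 1 for Asp (1.17) and Val (1.19). The difference was not tested, since each group had 1 library, and these tRNAs were picked for it.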

How the results depend on the processing

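The summed ratios depended on what they were divided by. In the order NaIO4 in wild type, NaIO4 in Hen1 knockout cells, the quotient of both, the Hen1 knockout, the Mili knockout and the immunoprecipitate over wild type, the values above were 1.01, 0.360, 0.355, 1.28, 1.07 and 1.10. Per microRNA read they were 17.0, 1.18, 0.0691, 3.44, 0.598 and 36.1. Among 25 to 31 nt alone they were 0.792, 0.863, 1.09, 0.887, 1.84 and 0.752. With each library's 10 most abundant sequences left out they were 0.979, 0.544, 0.556, 1.23, 1.25 and 0.431. With each distinct sequence counted once they were 0.641, 4.95, 7.72, 0.519, 4.14 and 0.200, which counts how many sequences were seen and so moves with depth. With up to 1 mismatch they were 1.03, 0.349, 0.340, 1.33, 1.06 and 1.12. With the first Glu isodecoder alone, an alternative chosen after seeing the data, they were 1.00, 0.345, 0.345, 1.33, 1.07 and 1.24. From nt 1 alone, none of these 6 moved beyond its interval.

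Of the 24 ratios of single tRNAs, 7 came to lie on the other side of 1 per microRNA read, 6 among 25 to 31 nt, 2 without the 10 most abundant sequences and 19 with sequences counted once, and 0 from nt 1 alone or with 1 mismatch. Those named next were at least 2-fold from 1 as reported. Glu turned per microRNA read for NaIO4 in the knockout (1.35) and the immunoprecipitate (10.4), and Val for NaIO4 in the knockout (1.21). Among 25 to 31 nt, Glu turned for NaIO4 in the knockout (1.39) and for the ratio of ratios (2.03); of those nearer to 1, Glu in the untreated Hen1 knockout went to 0.461 and Gln with NaIO4 in wild type to 0.834. Asp in the immunoprecipitate turned to 0.504 without each library's own 10 most abundant sequences. Those of the immunoprecipitate hold its 29- and 32-nt fragments, which stayed in the wild type count. Asp there turned to 0.180 with sequences counted once. That count also turned NaIO4 in the knockout and the ratio of ratios for Glu (5.03, 7.86), Asp (4.85, 8.17), Gln (4.33, 5.97) and Val (5.26, 7.90), and for Gln the Hen1 knockout (0.740) and the Mili knockout (5.16). Where no construction is named, the cause was not tested. Of 36 quotients of reads of 1 length per read of another, 33 stayed within their interval from nt 1 alone and 19 with up to 1 mismatch, and none turned.

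The share of 25 to 31 nt moved with up to 1 mismatch to 72.7% in treated wild type, 59.0% in the Hen1 knockout, 69.7% in the treated Hen1 knockout, 43.1% in the Mili knockout and 68.4% in the MILI immunoprecipitate, the last also from nt 1 alone (68.4%). With at least 50 reads, 6 of 50 sequences were higher with NaIO4 in wild type (8.36% of all sequences under this rule), 0 of 50 higher in the treated Hen1 knockout (13.3%), 11 of 46 lower in the Mili knockout (18.2%) and 11 of 59 higher in the immunoprecipitate (53.9%). At 4-fold, NaIO4 gave 0 of 75 higher (1.11% of all) and 16 lower (34.9%) in wild type, and 1 higher (5.50%) and 31 lower (52.7%) in the Hen1 knockout. The untreated Hen1 knockout then gave 20 of 84 higher (22.9%) and 2 lower (13.9%), the Mili knockout 1 of 72 higher (6.24%) and the immunoprecipitate 9 of 85 higher (36.9%). No paired analysis was possible because each group had 1 library. The treated Hen1 knockout was the shallowest library, with 1320 Gln reads, and its values for single lengths have the widest intervals.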
